A study of Mus musculus with 2 samples.

Results

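A set of 8 genes of cell cycle inhibitors and cyclins was followed across the cells of mouse glomeruli, the filtering units of the kidney: the cyclin-dependent kinase (CDK) inhibitor genes Cdkn1a, Cdkn1b, Cdkn1c and Cdkn2c, the D-type cyclin genes Ccnd1, Ccnd2 and Ccnd3, and Ccng1, which encodes cyclin G1. The genes were taken by symbol from the feature lists of both libraries, and each of the 8 was found among the 31058 features. The series holds 2 libraries of droplet-based single-cell RNA sequencing, 1 from a mouse titled female and 1 from a mouse titled male. Both mice were healthy C57Bl/6 animals of the genotype Pax2.rtTA;TetO.Cre;R26.Confetti, in which doxycycline switches on Cre and a multicolour reporter in cells with Pax2 promoter activity. Both were given doxycycline at an age of 19 days and were killed at an age of 30 days, and the labels describe the material as all cells of the glomerulus. Each group is 1 animal.

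CDK4 and CDK6 need a D-type cyclin to phosphorylate the retinoblastoma protein and carry a cell through G1. The Cip/Kip inhibitors p21 (Cdkn1a), p27 (Cdkn1b) and p57 (Cdkn1c) bind cyclin-CDK complexes, whereas the Ink4 inhibitor p18 (Cdkn2c) binds CDK4 and CDK6 themselves. Podocytes, the cells that wrap the glomerular capillaries, leave the cell cycle during development and are known for p57, while parietal epithelial cells line the capsule around them.

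Cells were typed 1 by 1 from marker genes, none of which is among the 8, and a type name stands for cells that are like that type in these markers. Of 10207 barcodes, 9351 passed the filters on mitochondrial share and gene number, and 138 of these had no clear type. Podocytes numbered 4237 and 3809, parietal epithelial cells 82 and 66, mesangial cells 219 and 172, endothelial cells 180 and 155, and tubule cells 52 and 87. Pairs of values are given here and below for the female-labelled library first and the male-labelled library second. Smooth muscle or renin cells (38 and 52) and immune cells (13 and 51) were described without a test. Among the leading genes of each type were some of its own markers. Examples are Clic3, Nphs1 and Ptpro in podocytes, Akap12 and Lbp in parietal cells and Itga8 and Sfrp2 in mesangial cells. In endothelial cells they were Kdr and Emcn and in tubule cells Umod and Slc12a1. The cells were typed by these markers, so this is no check on the names. Cells of the thick ascending limb were the most frequent tubule cells, 33 of 52 and 43 of 87.

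The libraries did not match their labels in 1 respect. Xist, which is transcribed from the inactive X chromosome, stood at 0.621 CPM, the UMI count scaled to the same total in every sum, in the female-labelled library and at 1426 CPM in the male-labelled library, and the Y-linked genes stood at 201 and 0.0346 CPM. No direction between the sexes is therefore drawn. The libraries held 67648465 and 57841860 UMIs, with a median of 10672 and 9616 UMIs per kept cell, and 10 cell barcodes occurred in both libraries.

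Podocytes differed from the 4 other types in most of the 8 genes. Counts were summed per library and type and tested with edgeR's quasi-likelihood test, with the library as a block and Benjamini-Hochberg adjustment over 12238 genes at a threshold of 0.05. Against parietal epithelial cells, 3 members were higher in podocytes and 4 were lower, where 54.2% of all genes tested were called, 25.9% higher and 28.3% lower. Against mesangial cells, 2 members were higher and 5 lower, where 55% of all genes were called, 28.1% higher and 26.9% lower. Against endothelial cells, 2 were higher and 6 lower, where 56.7% of all genes were called, 29.1% higher and 27.7% lower. Against tubule cells, 1 was higher and 4 were lower, where 58.8% of all genes were called, 28.7% higher and 30.1% lower. The 4 comparisons share the podocyte sums and so are not independent. Most genes were called in each comparison, and with 8 members these counts are given as a description beside the background.

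The scaling of the libraries moves small differences. The median log2 fold change of all genes tested was 0.05, 0.09, 0.10 and 0.04 against parietal, mesangial, endothelial and tubule cells. Scaled by library size alone, it was -0.18, -0.07 and -0.01 against the first 3 types, and with DESeq2 size factors it was -0.10 against tubule cells. Against parietal cells, 3169 genes were called higher and 3463 lower in the edgeR test as designed, but 2040 and 4271 with library size alone, 2579 and 3794 with DESeq2 size factors and 1982 and 3444 with DESeq2. Against mesangial cells the split was 3444 higher and 3291 lower as designed and 2686 and 3849 with library size alone, and against tubule cells it was 3510 and 3684 as designed and 2338 and 3716 with DESeq2. The differences reported for Cdkn1b and for Ccnd3 against parietal and tubule cells are of the size of these shifts. That of Ccng1 against parietal cells moved from 0.58 to 0.34 with library size alone. Other small differences below, such as those of Cdk7, Ccnc and Ccnt2, are moved by the same shifts, by an amount not given here.

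**Figure D1:**
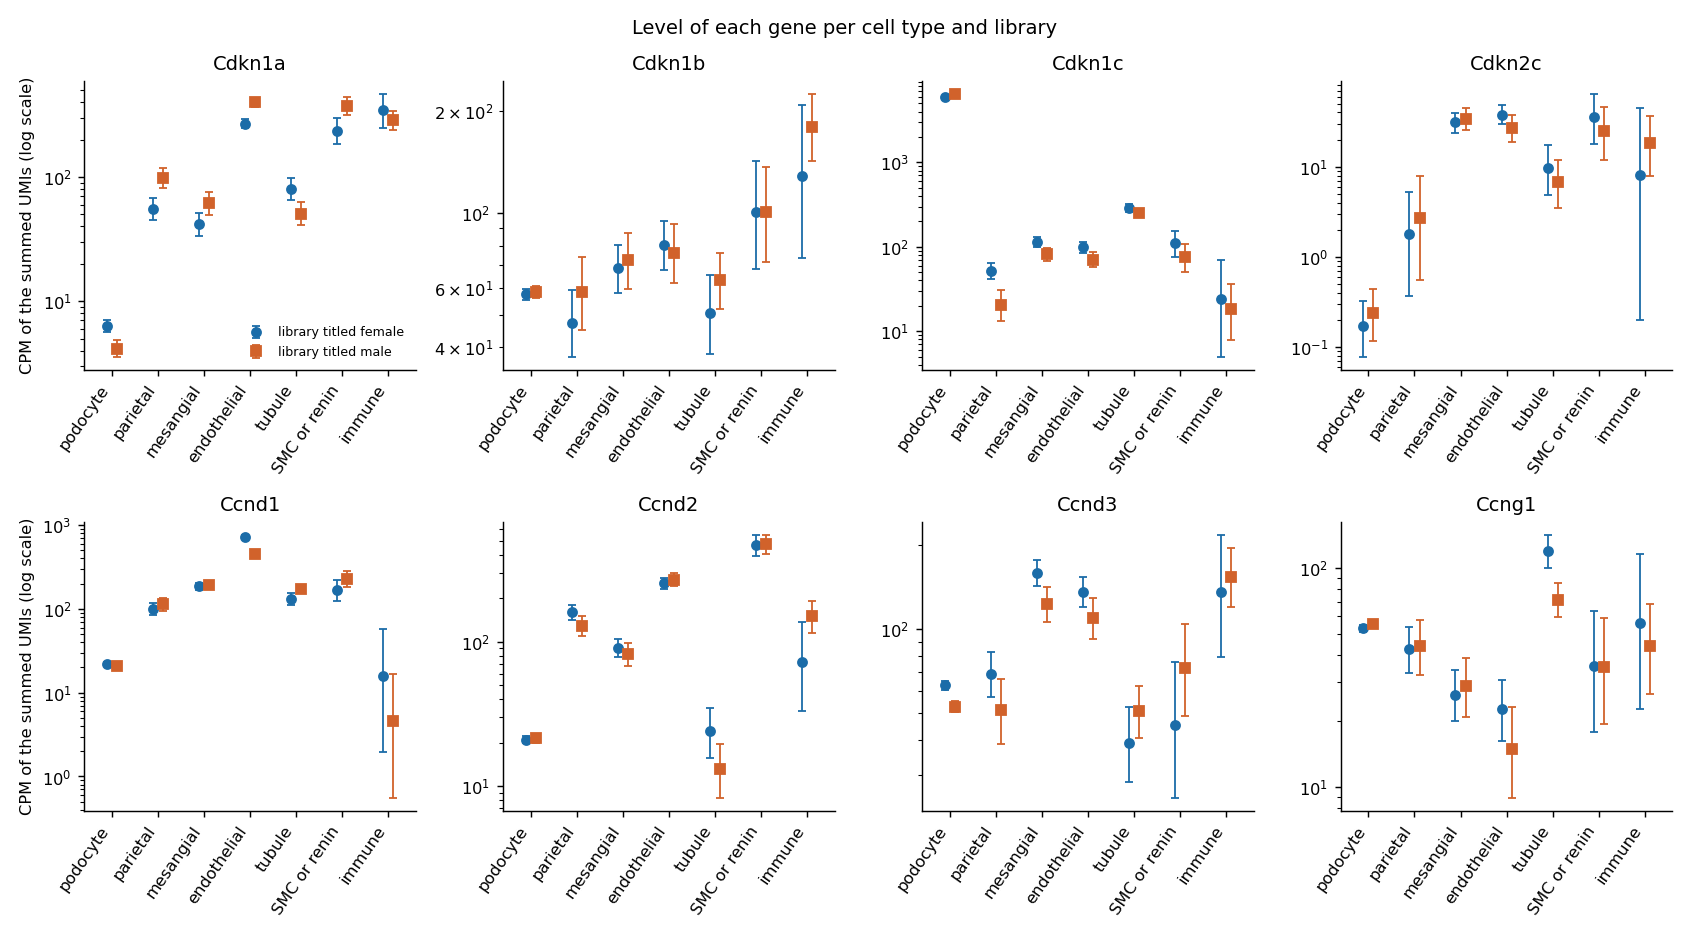
Level of each gene in CPM of the summed UMIs (log scale) in 7 cell types, with 1 point per library and exact 95% Poisson intervals for counting error. Cdkn1c is at 6003 and 6406 CPM in podocytes and below 300 CPM in every other type shown, whereas Cdkn1a, Cdkn2c, Ccnd1 and Ccnd2 are low in podocytes.

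Cdkn1c (ENSMUSG00000037664, chr7:143458339-143461050, minus strand, GRCm38), the p57 gene, was the most unequal of the 8 toward podocytes. Its level was 6003 and 6406 CPM in podocytes. It was 52.1 and 20.6 CPM in parietal cells, 115 and 82.3 CPM in mesangial cells, 98.9 and 70.7 CPM in endothelial cells and 291 and 251 CPM in tubule cells. Podocytes of both libraries stood above all other types, with no overlap. Podocytes had a log2 fold change of 7.65 ± 0.25 (SE) against parietal cells, a 201-fold difference (adjusted p = 7.81e-12). Taken in 1 library at a time, it was 7.08 in the female-labelled and 8.50 in the male-labelled library. In the former, the highest parietal cell held 28 of the 87 Cdkn1c UMIs of all parietal cells. The log2 fold change was 6.17 ± 0.23 against mesangial cells, 6.33 ± 0.23 against endothelial cells and 4.51 ± 0.21 against tubule cells, with adjusted p-values of 1.1e-11, 8.96e-12 and 2.01e-10. The counts of an overlapping gene on the other strand, Gm44732, came to 131 UMIs beside 589777 of Cdkn1c over all barcodes, before filtering.

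The podocyte signal was carried by nearly every cell. The median podocyte held 62 and 58 Cdkn1c UMIs, and 90% of podocytes held between 14.8 and 177 UMIs in the female-labelled library and between 15 and 158 in the male-labelled library. Only 3 podocytes in each library held none. Thinned to 3000 UMIs per cell, 99.5% and 99.6% of podocytes had a Cdkn1c UMI, against 15.9% and 3.03% of parietal cells, 28.8% and 24.4% of mesangial cells and 22.8% and 16.1% of endothelial cells. Unthinned, the shares were 99.9% and 99.9% of podocytes, 41.5% and 30.3% of parietal cells, 59.8% and 40.1% of mesangial cells and 52.2% and 36.8% of endothelial cells.

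UMIs of podocyte markers were found in all other types, and so the level of Cdkn1c there was set beside those of 6 podocyte markers (Nphs1, Clic3, Thsd7a, Synpo, Ptpro and Tcf21), each as percent of its own podocyte level. In parietal cells Cdkn1c reached 0.868% and 0.322%, beside a marker median of 2.21% and 1.88% in the same cells. Cdkn1c was below the marker median in both libraries. In tubule cells Cdkn1c was at 4.84% and 3.92% and the marker median at 4.19% and 3.90%, with Cdkn1c inside the marker range of both libraries. The summed level of the 10 podocyte markers in tubule cells was 987 and 977 CPM, with none of the 10 at 0, against 19264 and 21096 CPM in podocytes. Endothelial cells held more, at 1443 and 1516 CPM, and parietal and mesangial cells less, at 601 and 450 and at 442 and 346 CPM. In tubule cells Cdkn1c was also unevenly held: 29 of 52 and 59 of 87 cells had no Cdkn1c UMI, while the highest cell had 140 and 157 UMIs. In mesangial cells Cdkn1c was at 1.91% and 1.29% and the marker median at 0.711% and 0.581%, and in endothelial cells Cdkn1c was at 1.65% and 1.10% and the median at 1.2% and 0.772%. Cdkn1c thus lay above the marker median in both libraries in mesangial and endothelial cells. It lay inside the range of the 6 markers there, which ran from 0.327% to 8.65% in mesangial cells of the female-labelled library, and the part of podocyte RNA in these values was not tested.

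**Figure D2:**
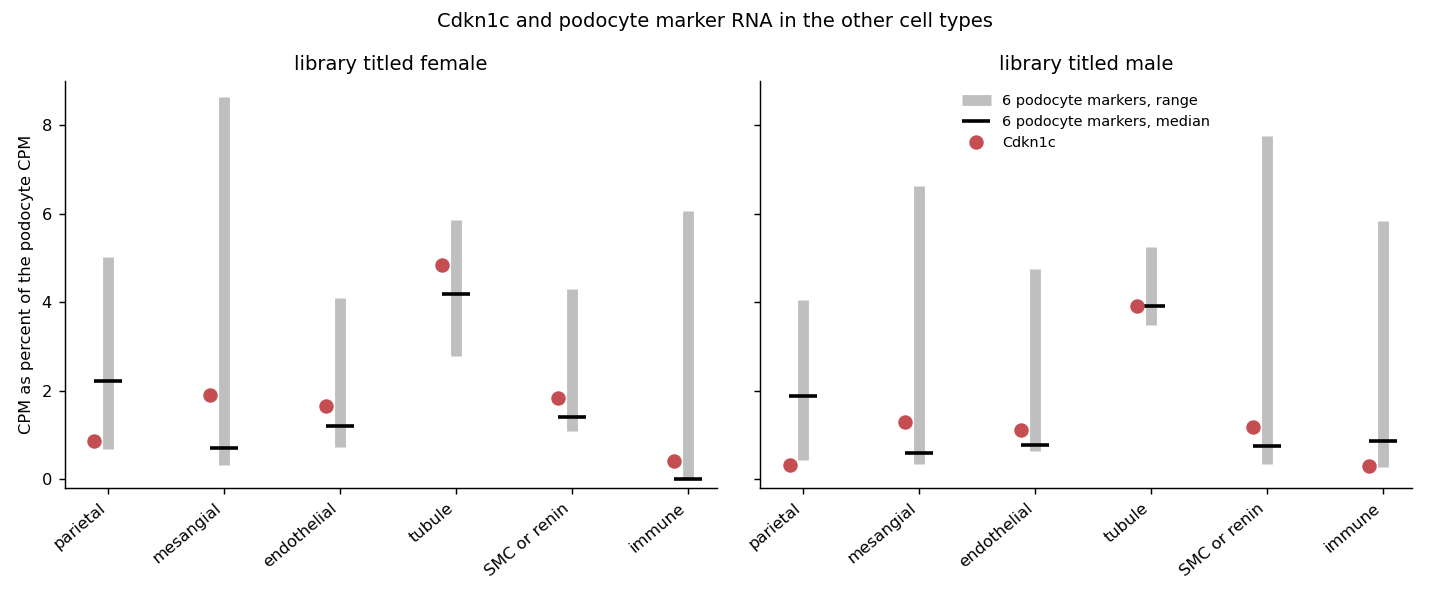
Level of Cdkn1c (red) and of 6 podocyte markers (grey range, black median) in 6 other cell types, each as percent of its podocyte CPM in the same library. Cdkn1c lies near the marker median in tubule cells (4.84% and 4.19% in the female-labelled library) and above it in mesangial and endothelial cells.

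The size of the Cdkn1c difference from tubule cells depended on the mitochondrial limit, with a log2 fold change of 3.13 at a limit of 10% and of 6.20 at 50%, and of 5.65 at a stricter typing margin. Where cells were typed by cluster instead, it was 2.98 against endothelial and 2.89 against tubule cells, and parietal cells fell into 1 cluster with podocytes and gave no value.

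Cdkn1a (ENSMUSG00000023067, chr17:29090976-29100727, plus strand), which encodes p21, the inhibitor that p53 induces after DNA damage, was lowest in podocytes. Its level there was 6.33 and 4.15 CPM. It was 55.7 and 98.6 CPM in parietal cells, 41.8 and 61.4 CPM in mesangial cells, 269 and 399 CPM in endothelial cells and 80.7 and 50.8 CPM in tubule cells. No podocyte sum overlapped with any other type. Against parietal cells the log2 fold change was -3.57 ± 0.31 (SE), and it was -3.09 ± 0.32 against mesangial, -5.84 ± 0.27 against endothelial and -3.60 ± 0.33 against tubule cells, with adjusted p-values of 2.65e-07, 1.08e-06, 1.35e-10 and 2.63e-07. Taken in 1 library at a time, the difference from parietal cells was -2.87 in the female-labelled and -4.27 in the male-labelled library. A Cdkn1a UMI was seen in 5.15% and 2.97% of podocytes, against 72.2% and 71.0% of endothelial cells (1.53% and 1.05%, and 45.0% and 49.7%, after thinning). Cdkn1a was also high in smooth muscle or renin cells (237 and 374 CPM) and in immune cells (345 and 286 CPM), whose ranges overlapped with that of endothelial cells.

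Ccng1 (ENSMUSG00000020326, chr11:40748552-40755311, minus strand), another textbook target of p53, did not follow Cdkn1a. Its level was 52.9 and 55.2 CPM in podocytes, 42.5 and 43.9 CPM in parietal cells, 26.3 and 28.7 CPM in mesangial cells and 22.5 and 14.8 CPM in endothelial cells. In tubule cells it was 120 and 71.3 CPM. Podocytes were therefore above 3 of the types and below the fourth in both libraries. Podocytes had a log2 fold change of 1.15 ± 0.20 (SE) against mesangial and 1.61 ± 0.22 against endothelial cells (adjusted p = 0.000162 and 2.16e-05) and -0.80 ± 0.16 against tubule cells (adjusted p = 0.000723). Against parietal cells it was 0.58 ± 0.19 with an adjusted p of 0.0202, which was 0.0509 without the library block and 0.175 with library size alone. Against tubule cells the call ended where thick ascending limb cells alone stood for the tubule, an alternative chosen after seeing the data (-0.17, adjusted p = 0.455), and at a mitochondrial limit of 10% (-0.20, adjusted p = 0.656). In proximal tubule cells, 9 and 22 in number, Ccng1 was at 239 and 72.7 CPM, and in thick ascending limb cells at 57.7 and 63.5 CPM.

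The promoter windows of these 2 p53 target genes are shown because the genes moved in opposite directions against parietal, mesangial and endothelial cells. Each runs from 250 bases before to 50 bases after an annotated start, 5′ to 3′ on the strand of the gene, from RefSeq on GRCm38.p6, at chr17:29090729-29091028 for Cdkn1a and chr11:40755237-40755536 for Ccng1. Matches to the p53 half-site consensus, searched on both strands, are in capitals.
Cdkn1a: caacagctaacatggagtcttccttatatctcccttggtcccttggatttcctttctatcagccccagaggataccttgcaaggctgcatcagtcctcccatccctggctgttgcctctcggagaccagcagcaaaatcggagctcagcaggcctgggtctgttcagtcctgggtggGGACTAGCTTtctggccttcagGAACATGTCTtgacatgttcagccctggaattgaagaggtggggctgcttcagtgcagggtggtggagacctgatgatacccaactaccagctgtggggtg
Ccng1: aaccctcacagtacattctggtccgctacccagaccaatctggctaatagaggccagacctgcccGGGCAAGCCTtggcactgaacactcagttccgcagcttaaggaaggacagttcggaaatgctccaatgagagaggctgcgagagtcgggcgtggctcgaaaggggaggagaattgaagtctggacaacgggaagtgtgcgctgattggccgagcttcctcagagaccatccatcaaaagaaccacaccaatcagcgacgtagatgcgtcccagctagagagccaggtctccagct
The Cdkn1a window holds 2 matches, which begin 73 and 51 bases before the start, and the Ccng1 window holds 1 match, which begins 185 bases before it. Of all 32851 promoter windows of this length in the table, 8.36% hold such a match. A window was present for 5 of the 8 members, with 8 windows in all, and the other windows, of Cdkn1b, Cdkn2c, Ccnd3 and a second start of Cdkn1a, held no match. A match is only a stretch of letters and says nothing on binding.

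Cdkn1b (ENSMUSG00000003031, chr6:134920401-134925513, plus strand), the p27 gene, was near the same level in all 4 comparisons. It was at 57.4 and 58.3 CPM in podocytes, 47.3 and 58.2 CPM in parietal, 68.5 and 72.5 CPM in mesangial, 80.2 and 76.2 CPM in endothelial and 50.5 and 63.4 CPM in tubule cells. The podocyte range lay inside that of tubule cells and overlapped with that of parietal cells, with nearly equal levels in the male-labelled library. For p27 the log2 fold change was 0.38 ± 0.14 (SE) against parietal cells (adjusted p = 0.033) and -0.34 ± 0.13 against endothelial cells (adjusted p = 0.0361), and both calls ended without the library block (adjusted p = 0.0582 and 0.0738). Against mesangial and tubule cells it was -0.13 ± 0.13 and -0.02 ± 0.14, with adjusted p-values of 0.422 and 0.902. The highest levels were in immune cells, at 128 and 180 CPM.

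Cdkn2c (ENSMUSG00000028551, chr4:109660876-109667189, minus strand), the p18 gene, was nearly silent in podocytes, with 9 and 10 UMIs in all podocytes of each library, or 0.171 and 0.243 CPM. It was at 31 and 34.0 CPM in mesangial, 37.9 and 27.2 CPM in endothelial and 9.75 and 6.85 CPM in tubule cells. In parietal cells 3 UMIs in each library gave 1.80 and 2.69 CPM. Podocytes were lower than each type in both libraries. In the test the log2 fold change was -7.08 ± 0.33 (SE) against mesangial, -7.16 ± 0.33 against endothelial and -5.27 ± 0.50 against tubule cells, with adjusted p-values of 1.29e-10, 1.35e-10 and 4.71e-07. Against parietal cells it was -3.10 ± 0.79 (adjusted p = 0.00416), but with 3 UMIs the parietal level was 10.5 times the podocyte level in the female-labelled library, with a counting interval from 1.83 to 42.1, and 11.1 times (1.96 to 43.0) in the other. In the female-labelled library alone, with a prior count of 2 added, the difference was -2.26 against parietal and -6.30 against mesangial cells. In the male-labelled library alone it was -6.15 against mesangial, -5.89 against endothelial and -4.08 against tubule cells. The call against parietal cells ended without cells that held Mki67 or Top2a UMIs (-1.72, adjusted p = 0.254), and the other 3 values were then -4.47, -4.86 and -4.32.

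The D-type cyclins, the activating partners of CDK4 and CDK6, were lower in podocytes in 9 of 12 tests and higher in 0, where 26.9% to 30.1% of all genes were lower and 25.9% to 29.1% higher, depending on the comparison. Ccnd1 (ENSMUSG00000070348, chr7:144929931-144939925, minus strand) was at 21.9 and 20.9 CPM in podocytes, 100.03 and 114 CPM in parietal, 186 and 195 CPM in mesangial, 725 and 451 CPM in endothelial and 133 and 174 CPM in tubule cells. Podocytes overlapped with none of these types. For cyclin D1 the log2 fold change was -2.08 ± 0.21 (SE) against parietal, -2.99 ± 0.20 against mesangial, -4.67 ± 0.21 against endothelial and -2.89 ± 0.21 against tubule cells, with adjusted p-values of 1.2e-06, 1.03e-08, 9.68e-11 and 2.13e-08. Only immune cells held less Ccnd1, at 16 and 4.61 CPM. The gene overlaps with LTO1 on the other strand, which had 2670 UMIs beside 7778 of Ccnd1 over all barcodes, before filtering. Whether counting kept the strands apart is not stated in the labels.

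Ccnd2 (ENSMUSG00000000184, chr6:127125162-127152193, minus strand) was at 21.0 and 21.4 CPM in podocytes, 160 and 129 CPM in parietal, 91.0 and 81.7 CPM in mesangial and 254 and 269 CPM in endothelial cells. Tubule cells, at 23.9 and 13.1 CPM, were on both sides of the podocyte level. The log2 fold change was -2.54 ± 0.14 (SE) against parietal, -1.87 ± 0.14 against mesangial and -3.52 ± 0.13 against endothelial cells, with adjusted p-values of 1.57e-09, 4.19e-08 and 1.38e-11. Against tubule cells it was 0.24 ± 0.22 (adjusted p = 0.383). That value was -1.23 (adjusted p = 0.00795) at a mitochondrial limit of 10% and 1.70 (adjusted p = 2.19e-06) at 50%, where other tubule cells enter. Smooth muscle or renin cells held the most Ccnd2, at 467 and 472 CPM.

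Ccnd3 (ENSMUSG00000034165, chr17:47505051-47599691, plus strand) was at 62.8 and 52.7 CPM in podocytes and at 68.9 and 51.1 CPM in parietal cells, and these ranges overlapped. It was at 160 and 123 CPM in mesangial, 136 and 110 CPM in endothelial and 39.0 and 50.8 CPM in tubule cells. The log2 fold change was -1.14 ± 0.13 (SE) against mesangial and -0.99 ± 0.14 against endothelial cells (adjusted p = 4.62e-06 and 2.67e-05). Against parietal and tubule cells it was 0.17 ± 0.16 and 0.28 ± 0.17, with adjusted p-values of 0.383 and 0.173, and the sign against parietal cells turned with library size alone and after thinning. Bysl, which overlaps with Ccnd3 on the other strand, had 1649 UMIs beside 7536 of Ccnd3.

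**Figure D3:**
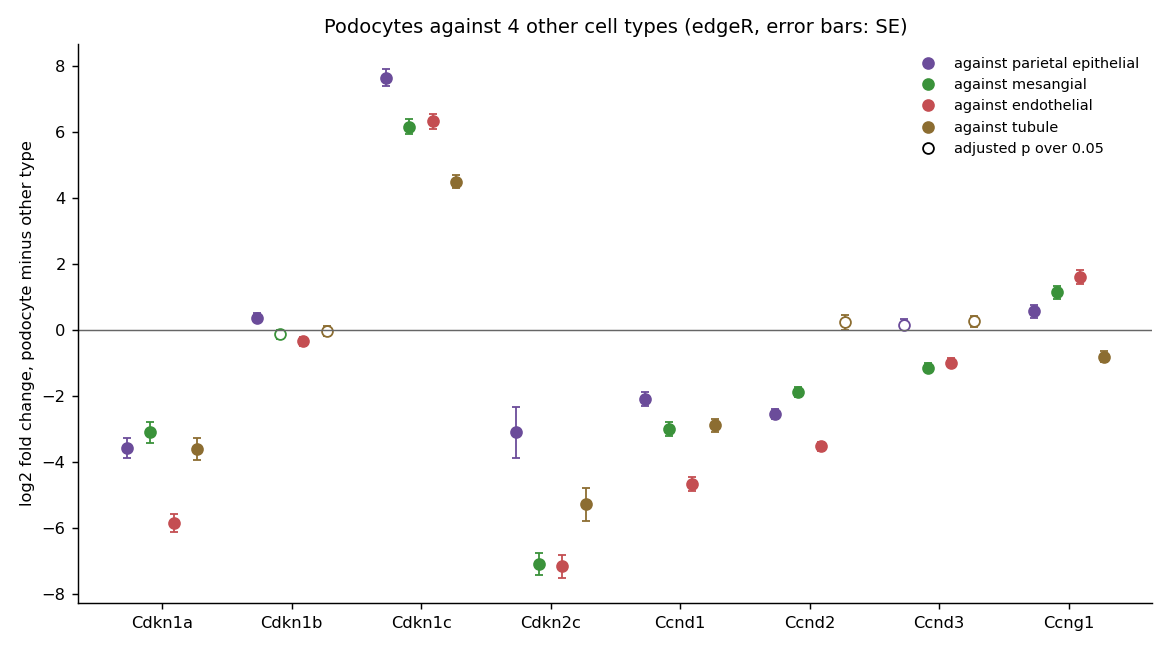
Log2 fold change of podocytes against 4 other cell types for each gene, from edgeR's quasi-likelihood test on the sums of both libraries (points; bars are standard errors), with open points for adjusted p-values over 0.05. Cdkn1c lies between 4.51 and 7.65, Cdkn1a, Cdkn2c and Ccnd1 lie below -2 in each comparison, and Cdkn1b and Ccnd3 lie near 0 in several.

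Among podocytes outside a cluster shared with parietal cells, Cdkn1b, Cdkn1c and Ccng1 varied less between clusters than Cdkn1a and Ccnd1. Clustered without the 8 genes, Mki67 and Top2a, the podocytes fell into 7 clusters and into a cluster shared with the parietal cells. Over the 7 clusters Cdkn1c ranged from 5240 to 7010 CPM in the female-labelled library and from 5250 to 6906 CPM in the male-labelled library, and Cdkn1b from 52.9 to 63.1 and from 56.5 to 60.9 CPM. Ccng1 ranged from 48.9 to 63.3 and from 48.7 to 58.7 CPM. Ccnd1 ranged from 14.2 to 31.5 and from 12.2 to 30.3 CPM, Ccnd3 from 49.3 to 73.4 and from 42.0 to 64.9 CPM, and Cdkn1a from 2.47 to 9.39 and from 1.87 to 6.13 CPM. The Cdkn1a levels rest on 7 to 106 UMIs per cluster and library, and counting error was not set apart from these ranges. In each of the 7 clusters, Cdkn1c stayed above and Cdkn1a and Ccnd1 stayed below the levels of the 4 other types.

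A small set of cells lay between podocytes and parietal cells. The cluster that held most parietal cells also held 85 and 64 cells typed as podocytes, and 10 and 9 cells stayed untyped between both. From the other podocytes over these 2 sets to parietal cells, Cdkn1c was at 6107, 2289, 958 and 52.1 CPM in the female-labelled library and at 6503, 1807, 636 and 20.6 CPM in the male-labelled library. Ccnd2 was at 19.6, 71.1, 102 and 160 CPM in the former and at 20.4, 68.3, 140 and 129 CPM in the latter. Cdkn1a was at 18.1 and 17.7 CPM in the podocytes of the shared cluster, above 6.00 and 3.87 CPM in the other podocytes, whereas Cdkn1b (54.4 and 36.5 CPM) was not above their 57.5 and 58.8 CPM. Markers moved with these values: Nphs1, the nephrin gene, was at 1515, 1054, 389 and 38.9 CPM and Akap12, a parietal marker, at 22.3, 344, 1318 and 2699 CPM in the female-labelled library. Cells were placed in these sets by such markers, the values carry no test, and whether single cells or mixed droplets give the middle levels was not tested.

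**Figure D4:**
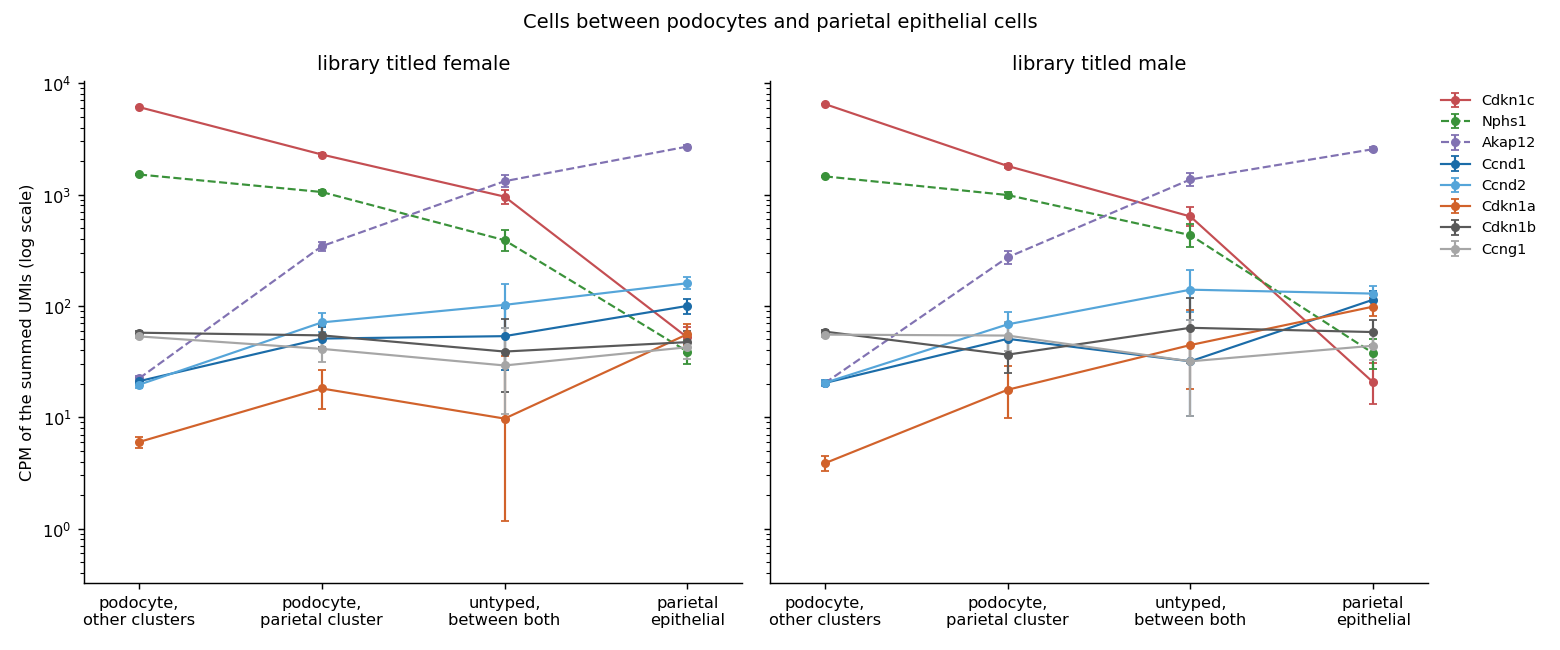
CPM (log scale, exact 95% Poisson intervals) of 6 of the genes and of the markers Nphs1 and Akap12 (dashed) in podocytes, in podocytes of the cluster that held most parietal cells, in cells untyped between both and in parietal cells. Cdkn1c falls from 6107 to 52.1 CPM and Nphs1 from 1515 to 38.9 CPM in the female-labelled library, while Cdkn1b stays between 36.5 and 63.6 CPM.

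Cells with at least 1 UMI of Mki67 or Top2a, genes of the S, G2 and M phases, are called cycling below. They made up 0.425% of podocytes in the female-labelled library (18 of 4237 cells, exact 95% binomial interval 0.252% to 0.671%) and 0.341% in the male-labelled library (13 of 3809, 0.182% to 0.583%). The share was 9.13% and 6.98% in mesangial, 12.2% and 5.16% in endothelial, 6.1% and 7.58% in parietal and 11.5% and 4.6% in tubule cells. The lowest lower bound among these types, 1.27% in tubule cells of the male-labelled library, was above both podocyte intervals, but this did not hold for each type after thinning. The intervals cover counting error only. After thinning to 3000 UMIs the shares were 0.118% and 0.105% in podocytes, 7.31% and 5.81% in mesangial, 8.33% and 2.58% in endothelial, 1.22% and 3.03% in parietal and 7.69% and 2.30% in tubule cells. The thinned podocyte intervals were 0.0383% to 0.275% and 0.0286% to 0.269%. That of parietal cells in the female-labelled library, on 1 cell, was 0.0309% to 6.61% and overlapped with them, and the lower bound of tubule cells in the male-labelled library was 0.280%. Mesangial and endothelial cells stayed above the podocyte intervals in both libraries.

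The cycling podocytes held few UMIs of other cell cycle genes. Their sums cannot tell low levels of these genes from none. Still, Cdk1, Ccnb1 and Birc5 were below their levels in cycling mesangial cells in both libraries. Of the 18 and 13 cells, 13 and 11 held a single UMI of Mki67 and Top2a, and together they held 2 and 0 UMIs of Cdk1, 1 and 0 of Ccnb1 and 1 and 0 of Birc5. The 20 cycling mesangial cells of the female-labelled library held 47, 15 and 64 UMIs of these 3 genes and the 12 of the male-labelled library 29, 32 and 33. All UMIs came to 297398 and 157726 in cycling podocytes and to 229979 and 170491 in cycling mesangial cells. Cdk1 was at 6.72 CPM (counting interval 0.814 to 24.3) and 0 CPM (up to 23.4) in the former. It was at 204 (150 to 272) and 170 CPM (114 to 244) in the latter. For Ccnb1 and Birc5 the podocyte intervals ended at 18.7 and 23.4 CPM, and no mesangial interval began below 36.5 CPM. The median depth of the cycling podocytes was 14882 and 10751 UMIs, against 10758 and 9734.5 in the other podocytes, so that it was higher in both libraries. Cdkn1c stayed high in the cycling podocytes, at 5124 and 5414 CPM against 6008 and 6410 CPM in the other podocytes, and each of these cells held Cdkn1c UMIs.

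None of the 8 members was called between cycling and other podocytes by edgeR, where 1.14% of 9443 genes were called, 1.13% higher and 0.0106% lower. At an unadjusted p under 0.05 the test gave 1 member, Cdkn1a, and DESeq2 gave 0 at its adjusted threshold. Cdkn1c had a log2 fold change of -0.31 ± 0.17 (SE, adjusted p = 0.764). It was called lower in 1 alternative, with 5 and 4 cycling cells after thinning (-1.27, adjusted p = 1.29e-05), where the sums were 61 and 39 Cdkn1c UMIs, or 4067 and 3250 CPM. Cdkn1a had 1.84 ± 0.74 (adjusted p = 0.53) on 8 and 1 UMIs. Cdkn2c had 0 UMIs in the cycling podocytes of both libraries, which allows a level of up to 10.1 and 19.0 CPM (3 counts). The genes called higher in this comparison, Mki67 and Top2a included, fell from 109 to 5 without the cells of the highest doublet scores. Of these cells, 3 and 2 were among the cycling podocytes. The scores come from a doublet caller that did not work here, fewer cycling cells entered, and the cause of the fall was not tested.

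In mesangial cells Cdkn2c was far higher in the cycling cells. It was at 261 and 240 CPM in cycling and at 3.16 and 8.09 CPM in other mesangial cells, with no overlap. The log2 fold change of cycling cells was 5.57 ± 0.43 (SE, adjusted p = 4.25e-08), and 6.31 and 4.83 in 1 library at a time, where 4.53% of all genes tested were called, 4% higher and 0.529% lower. Of the members, 1 was thus higher and 1, Cdkn1c, was lower. Cdkn1c was at 47.8 and 23.5 CPM in cycling and 123 and 89.7 CPM in other mesangial cells (-1.52 ± 0.34, adjusted p = 0.0096). Its adjusted p was 0.0502 where cycling cells had to hold 2 UMIs. Nphs1 was at 8.70 and 5.87 CPM in the cycling, on 2 and 1 UMIs, and at 11.6 and 8.09 CPM in the other mesangial cells, and the part of podocyte RNA in the Cdkn1c difference was not tested.

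The remaining members were not called between cycling and other mesangial cells. Ccnd2 was at 56.5 and 11.7 CPM in cycling and 95.2 and 90.4 CPM in other cells (-1.32 ± 0.39, adjusted p = 0.0654), and it was called lower where 2 UMIs were required (adjusted p = 0.0102). Ccng1 had -1.56 ± 0.59 (adjusted p = 0.186) on 2 UMIs in each cycling sum. Cdkn1b, Ccnd1, Ccnd3 and Cdkn1a had log2 fold changes between -0.02 and 0.26, with adjusted p-values of 0.645 or more. Cycling and other mesangial cells were at 174 and 205 against 187 and 193 CPM of Ccnd1.

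Endothelial cells had fewer than 10 cycling cells in 1 library and were not tested. Their Cdkn2c level was 243 and 245 CPM in the 22 and 8 cycling cells and 5.72 and 7.62 CPM in the other cells, a ratio of 42.5 (95% counting interval 21.0 to 97.5) and of 32.2 (14.6 to 78.1). Ccnd2 was at 118 and 123 CPM in the cycling and 275 and 282 CPM in the other endothelial cells. Tubule cells had a Cdkn2c ratio of 19.0 (4.57 to 111) and 6.19 (1.08 to 24.8) between cycling and other cells. In smooth muscle or renin cells the ratio was 43.1 (8.92 to 410) in 1 library and 1.38 (0.0315 to 9.96) in the other. Over all typed cells other than podocytes, 87.0% and 67.5% of the Cdkn2c UMIs lay in cycling cells, which were 10.6% and 7.89% of these cells and held 12.5% and 10.2% of their UMIs. For Ccnd2 the share of UMIs in cycling cells was 6.71% and 6.73%, and for Ccnd1 11.5% and 10.3%.

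**Figure D5:**
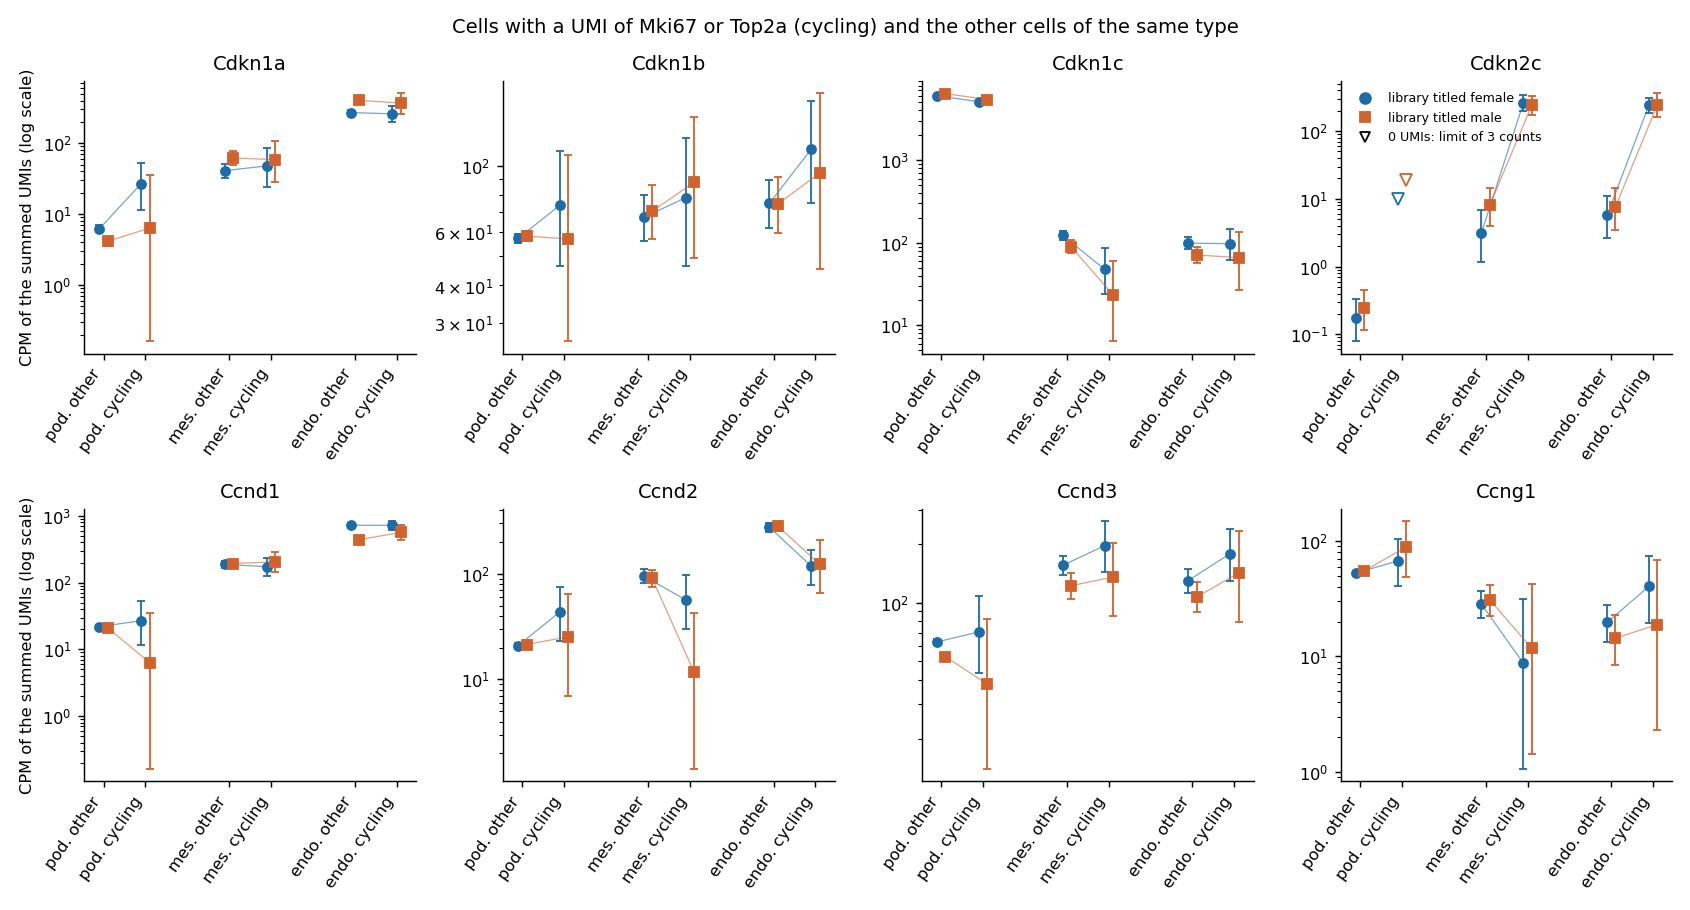
CPM (log scale, exact 95% Poisson intervals) of each gene in cells with a UMI of Mki67 or Top2a (cycling) and in the other cells, for podocytes (pod.), mesangial (mes.) and endothelial (endo.) cells of each library, with open triangles at the level that 0 UMIs allow. Cdkn2c rises from 3.16 and 8.09 to 261 and 240 CPM in mesangial cells, while Cdkn1c stays at 5124 and 5414 CPM in cycling podocytes.

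The 2 libraries were compared within each type. With 1 library per group there is no test, and the ratios carry counting intervals only. The female-labelled over male-labelled ratio in podocytes was 0.937 for Cdkn1c (0.932 to 0.942), 0.984 for Cdkn1b (0.932 to 1.04), 1.05 for Ccnd1 (0.957 to 1.14), 0.983 for Ccnd2 (0.899 to 1.07) and 0.958 for Ccng1 (0.906 to 1.01). It was 1.19 for Ccnd3 (1.13 to 1.26) and 1.52 for Cdkn1a (1.26 to 1.84), while Cdkn2c, with 0.704, had a wide interval (0.253 to 1.93). Cdkn1a lay the other way in parietal cells (0.565, 0.424 to 0.752), mesangial cells (0.680, 0.503 to 0.919) and endothelial cells (0.675, 0.595 to 0.766), but not in tubule cells (1.59, 1.17 to 2.15). Ccnd1 had its largest ratio of the 4 tested other types in endothelial cells, at 1.61 (1.46 to 1.78), and Cdkn1c in parietal cells, at 2.53 (1.58 to 4.20), where the 10 podocyte markers summed to 601 and 450 CPM. The highest parietal cell held 28 of the 87 Cdkn1c UMIs in the female-labelled library and 2 of 23 in the other. The counting interval does not cover such unevenness between cells.

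Other genes of the cycle were read from lists. Of 26 genes of the S, G2 and M phases, none was higher in podocytes in edgeR's test, and 19, 25, 26 and 21 were lower than in parietal, mesangial, endothelial and tubule cells, with a median log2 fold change of -2.54, -4.18, -4.70 and -2.81 beside 0.05, 0.09, 0.10 and 0.04 over all genes tested. Of all genes tested, 25.9% to 29.1% were higher and 26.9% to 30.1% lower, depending on the comparison. Cenpf, a centromere protein gene, was at 0.361 and 0.461 CPM in podocytes and at 116 and 214 CPM in mesangial cells (log2 fold change -8.56 ± 0.60, SE). Ube2c, which encodes a ubiquitin-conjugating enzyme of the anaphase-promoting complex, was at 0.304 and 0.0728 CPM in podocytes and at 76.9 and 45.9 CPM in endothelial cells (-8.16 ± 0.51). Of the 24 genes left without Mki67 and Top2a, all 24 were higher in cycling than in other mesangial cells by edgeR, where 4% of all genes were higher. Mki67 and Top2a, which chose these cells, belong to the same phases, so this result is no independent support. Between cycling and other podocytes 0 of the 24 were called by edgeR, where 1.14% of all genes were called, with 4 at an unadjusted p under 0.05 and 3 called by DESeq2. Their median log2 fold change in cycling podocytes was 0.77, beside -0.09 over all genes tested.

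The G1 to S machinery was mixed. Of 21 genes tested, 3, 4, 6 and 4 were higher and 5, 11, 9 and 3 were lower in podocytes than in parietal, mesangial, endothelial and tubule cells, with medians of 0.07, -0.35, -0.56 and 0.07. Over all genes tested, 25.9% to 29.1% were higher and 26.9% to 30.1% lower, with medians of 0.05, 0.09, 0.10 and 0.04. E2f1, which encodes a transcription factor released by phosphorylated retinoblastoma protein, stood at 117 and 114 CPM in podocytes, against 1.2 and 0.896 CPM in parietal and 14.5 and 5.23 CPM in mesangial cells (log2 fold changes of 6.98 ± 0.38 and 3.62 ± 0.22, SE). Ccna2, the cyclin A2 gene, went the other way, at 0.076 and 0.218 CPM in podocytes and 18.8 and 18.9 CPM in mesangial cells (-6.80 ± 0.63). Cdk7, the gene of the CDK-activating kinase, was higher in podocytes in each comparison, by 0.41 to 0.89 on the log2 scale. Cks1b, which encodes a CDK subunit, was lower against 3 types, and against tubule cells it had -0.88 ± 0.44 (adjusted p = 0.1).

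Among 13 other CDK inhibitor and cyclin genes tested, 4, 3, 2 and 4 were higher and 3, 4, 6 and 4 lower in the same order, with medians of 0.07, -0.10, -0.22 and 0.01. The shares over all genes tested were 25.9% to 29.1% higher and 26.9% to 30.1% lower, with medians of 0.05, 0.09, 0.10 and 0.04. Cdkn2b, which encodes the Ink4 inhibitor p15, was at 0.19 and 0.146 CPM in podocytes and at 21.0 and 21.5 CPM in parietal cells (log2 fold change -6.63 ± 0.47, SE). Cdkn3, a phosphatase gene of the mitotic programme, was also lower in podocytes in each comparison, and Ccnc and Ccnt2, cyclin genes of the transcription machinery, were higher in each, by 0.55 to 1.01 on the log2 scale.

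Of 17 p53 target genes tested, 4, 4, 4 and 4 were higher and 9, 7, 5 and 7 were lower in podocytes, with medians of -0.57, -0.12, -0.29 and -0.25. Beside these stand 25.9% to 29.1% higher and 26.9% to 30.1% lower over all genes tested, with medians of 0.05, 0.09, 0.10 and 0.04. Phlda3, which encodes an inhibitor of Akt signalling, was at 2.56 and 2.01 CPM in podocytes and 119 and 102 CPM in endothelial cells (log2 fold change -5.48 ± 0.16, SE), and Plk2, a polo-like kinase gene, was at 7.24 and 5.05 against 287 and 452 CPM (-5.76 ± 0.22). Btg2, an antiproliferative gene, went the other way, at 2238 and 1427 CPM in podocytes against 642 and 803 CPM in endothelial cells (1.45 ± 0.20), as did Trp53inp1 (1.83 ± 0.22).

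Of 15 genes tied to FOXO factors and quiescence, 3, 5, 6 and 5 were higher and 7, 7, 8 and 8 were lower, with medians of -0.33, 0.17, -0.62 and -0.33. Among all genes tested, 25.9% to 29.1% were higher and 26.9% to 30.1% lower, with medians of 0.05, 0.09, 0.10 and 0.04. Gas1, the growth arrest-specific 1 gene, was at 1172 and 914 CPM in podocytes, 163 and 163 CPM in parietal and 21.6 and 14.4 CPM in mesangial cells (log2 fold changes of 2.91 ± 0.17 and 5.99 ± 0.21, SE). Tob1, an antiproliferative gene, was at 339 and 374 CPM against 214 and 237 CPM in parietal cells (0.90 ± 0.18). Gas6, the gene of a ligand of TAM receptor kinases, and Pik3ip1, which encodes an inhibitor of PI3 kinase, were lower in podocytes, at 9.25 and 10.5 CPM and at 3.10 and 4.05 CPM, against 262 and 332 CPM and 96.7 and 120 CPM in endothelial cells. Named genes of each list are those called in the same direction in the most comparisons, with ties broken by size.

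The genes whose levels ran most like those of a member were ranked by Pearson's r of log2(CPM + 10) over 12 sums, 6 cell types in 2 libraries, among 5403 genes. The nearest genes to Cdkn1c were others with a high podocyte level: Metrnl (r = 0.979), Ddn (0.978), the gene of dendrin, and Myom2 (0.978). Metrnl was at 475 and 476 CPM and Ddn at 317 and 317 CPM in podocytes. Cdkn1a ran most like Galnt18 (0.972), Limch1 (0.953) and Cd200 (0.946), and Ccnd1 like Sgpp1 (0.971), Abcg2 (0.965) and Trim47 (0.953). Ccnd2 ran like Endod1 (0.973) and Atl3 (0.972). Other near genes were Akap6, Ripor2 and Tbx3os1 for Cdkn1b, Zfp715, Il2rg and Sh3gl1 for Ccnd3 and Ndufb2, Ndufa5 and Mrps34 for Ccng1, with r between 0.936 and 0.962. Sums of 1 library share a mouse and a capture, and such correlations are a description.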

How the data were processed

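Cells of the glomeruli of 2 mice were captured on the 10x Chromium platform as 3' gene expression libraries, per the labels' protocols. Cell Ranger 6.1.2, STAR 2.7.5a and the build mm10 are named, per the submitters' processing notes, without their roles. The deposited values are raw UMI counts per gene and barcode, per the file headers. Groups follow the titles. The 8 members, the gene lists and the markers were chosen with earlier results of these data known.

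Barcodes with over 20% mitochondrial UMIs or under 500 genes were left out. Each cell took the type with the highest mean scaled level of its markers (log of the value per 10000 UMIs), given at least 3 markers detected and a second score of at most 0.7 of the best. Near that limit, at a ratio of 0.6 to 0.8, lay 38 podocytes among 8046 and 25 parietal cells among 148. In parietal cells the 8 smooth muscle or renin markers summed to 3108 and 3718 CPM, beside 5183 and 4512 CPM for 10 parietal markers. Scrublet (scanpy 1.11.5) called 2 and 1 cells and so has not worked here. No cell was removed for it, and mixed cells may remain.

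Raw counts were summed per library and type, and the 10 sums of 5 types were fitted in edgeR 4.0.16 (TMM scaling, filterByExpr, quasi-likelihood test) with the library as a block, since both types of a comparison come from the same mouse. Cycling cells were tested where each library held at least 10. Adjusted p-values are Benjamini-Hochberg values over all genes tested. On simulated data of the same sums, with 11456 genes, 4-fold changes were recovered in 99% to 100% and 2-fold changes in 51% to 59%. There all types had the same profile, a fixed spread and no library effect, and only genes with ample counts were changed. These shares therefore do not carry over to the real sums, where most genes differed, or to genes with few counts. With 2 mice and the library as a block, p-values measure how unevenly the differences between types ran in the 2 libraries. This spread was shared over the types of a fit and drawn in part from other genes. Coordinates are those of GENCODE M21 (GRCm38) for whole genes, without separating exons from introns. All members are named, and from each list up to 4 genes called in the same direction in the most comparisons. Results of some genes are not reported here, and the 6 podocyte markers set beside Cdkn1c were chosen after seeing the data. DESeq2 1.42.0 and the other alternatives are given in the closing section.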

Additional observations from a re-analysis of the deposited data

Results flagged for a closer look

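In 3 cases the difference between podocytes and another type had opposite signs in the 2 libraries, and none of these differences between libraries was tested. On the log2(CPM + 1) scale, Ccnd3 in podocytes against parietal epithelial cells was -0.130 in the female-labelled library and 0.0452 in the male-labelled library. Ccnd2 against tubule cells was -0.18 and 0.66. Cdkn1b against tubule cells was 0.18 and -0.12. None of the 3 was called in the edgeR test over both libraries.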

How the results depend on the processing

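Against parietal cells the 3 members called higher became 1 with DESeq2, DESeq2 size factors, library size alone, no replicate block and thinning, where Cdkn1b and Ccng1 lost their calls. Without the replicate block, that is, without pairing the types by mouse, Cdkn1b also lost its call against endothelial cells, and no other call against podocytes ended. Against tubule cells 1 member was higher, and 3 at a mitochondrial limit of 50%. Lower in cycling podocytes were 0 members, and 1 after thinning. Lower in cycling mesangial cells was 1, and 2 without a filter. The other 124 of 132 alternative counts of members kept within 1.5 times the value reported.

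Among the tested differences, the sign turned in some that had not been called. These were Ccnd3 against parietal cells with library size alone (-0.066) and thinning (-0.053), Cdkn1b against mesangial cells without a filter (0.0059), and Ccnd3 against tubule cells at a limit of 50% (-0.024). Cdkn1b against tubule cells turned with library size alone (0.00478), at a limit of 50% (0.26), without a filter (0.054), with 2 types in the fit (0.0303), at the stricter margin (0.11), after thinning (0.014) and without cycling cells (0.020). Ccnd2 against tubule cells was -1.23 at a limit of 10%. There it was called by edgeR (adjusted p = 0.00795), as was Cdkn1b against tubule cells at 50% (adjusted p = 0.041). In cycling podocytes Cdkn1b turned after thinning (-1.11) and without high doublet scores (-0.031), Ccnd3 with DESeq2 (0.013) and Ccng1 after thinning (-0.98), and in cycling mesangial cells Cdkn1a turned without a filter (-0.11). Library ratios turned for Ccng1 in tubule cells at a limit of 10% (0.455) and, with clusters, for Cdkn1a in mesangial (1.77) and tubule cells (0.955) and Cdkn1c in endothelial cells (0.900). In the main setting the counting interval of each of these ratios did not include equal levels. The cause of these turns was not tested. Thinning left no value for members with 0 UMIs in cycling cells.

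The calls over all genes fell after thinning to 1423 higher and 1710 lower against parietal, 2197 and 2168 against mesangial, 2288 and 2286 against endothelial and 1684 and 1879 against tubule cells, where fewer UMIs enter. At a limit of 10%, 1873 and 2244 were called against tubule cells. In cycling podocytes, 109 higher and 1 lower became 251 and 0 with DESeq2 and 15 and 9 after thinning, and in cycling mesangial cells 380 and 50 became 104 and 67. Leaving out a mouse leaves 1 sum per type and so gives values with no test.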
